A study of Mus musculus with 6 samples.

Results

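The livers of 2 mice given a high-fat cholesterol (HFC) diet together with lovastatin were compared with pooled liver RNA of mice on standard chow. The group was chosen by its sample titles, Lovastatin treated mouse Smpl1 and Smpl2, called lovastatin replicates 1 and 2 here, and makes up 2 of the 6 arrays of the series. Both lovastatin mice were C57BL/6, 7 weeks old, fed the HFC diet for 12 days and dosed orally once a day from day 5, at 30 mg/kg according to the design text. The treatment text attached to these same 2 samples names fenofibrate at 100 mg/kg instead, so the group rests on the titles and source names. For comparison, 2 fenofibrate mice had the HFC diet for the same 12 days with fenofibrate at 100 mg/kg, and 2 HFC mice had the diet with vehicle by the design text. The reference on all 6 arrays was liver RNA pooled from 6 chow-fed C57BL/6 mice of the same age, which received vehicle by the design text. Each array measured 1 mouse, with 2 colours: the mouse carried Cy5 on the lovastatin and HFC arrays and Cy3 on the fenofibrate arrays. A ratio to the pool therefore holds diet, drug and any dye effect together, and dye and drug cannot be told apart between lovastatin and fenofibrate arrays.

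Lovastatin is a statin: it blocks the reductase that makes mevalonate, an early and rate-limiting step of cholesterol synthesis. Liver cells sense sterols in the endoplasmic reticulum, where SCAP and the INSIG proteins hold back the SREBP transcription factors when sterols are plentiful and let them go when sterols are scarce. A cholesterol-rich diet and a statin therefore push the same genes in opposite directions, the diet lowering and the statin raising the transcripts of sterol synthesis. Excess cholesterol leaves the liver through sterol exporters or as bile acids, which in turn repress their own synthesis.

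Every value below is a log ratio with base 2 assumed by convention, and is read as mouse over pool, so that a negative value is lower in the mouse. No source states that direction; it is likely, since the mouse is listed first on every array. Unless said otherwise, 2 values of a group stand for its replicate 1 and replicate 2. The 2 lovastatin arrays differed widely in spread. Over all probes the SD was 1.09 on replicate 1 and 0.420 on replicate 2, against 0.419 to 0.725 on the other 4 arrays, and 28% and 3.23% of probes lay at least 1 log2 unit from 0. In 858 olfactory and vomeronasal receptor genes, a family known for sensory neurons, the SD was 1.23 and 0.353 on the lovastatin arrays, while in 27 cytosolic ribosomal protein genes it was 0.209 and 0.194. The 2 lovastatin arrays also agreed poorly, with r = 0.189 over all probes. With HFC replicate 1, lovastatin replicate 1 had r = 0.186 and lovastatin replicate 2 had r = 0.505. Of 1486 features at least 2 log2 units from 0 on lovastatin replicate 1, 839 lay on the same side on replicate 2. Each array's value is therefore given, a gene is counted as above or below the pool only where both lovastatin arrays lie on that side of 0, and genes whose sign differs between them are named as such. On HFC replicate 2, 4 of 8 blocks of the array, with 50.3% of the probes used, hold values displaced by a rotation along the array rows. For genes there the HFC replicate 2 value is given with the block rotated back and is marked "put back". The other 5 arrays had 0 displaced blocks of 40.

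By limma, with Benjamini-Hochberg adjustment over all features, 0 of 19501 features passed an adjusted p of 0.05 for lovastatin against the pool (0%), while 2261 had an unadjusted p under 0.05 (11.6%). The smallest adjusted p was 0.124, and the median 95% interval reached 0.659 log2 units on either side. The count at an unadjusted limma p under 0.05 depends on the shared spread. It was 585 when the lovastatin arrays alone set the spread, and 1036 with array weights. The displaced blocks do not enter the lovastatin mean but widen the spread that the 3 groups share. With them put back 2 of 19501 features passed (0.0103%), Idi1 and Msmo1. Of 19002 features with a value on both lovastatin arrays, 5304 lay above 0 on both (27.9%) and 5668 below 0 on both (29.8%). Counts of list members below are to be read beside these shares. At least 1 log2 unit above 0 on both were 43 features (0.226%), and at least 1 below were 174 (0.916%), of which 41 and 140 were named genes. The 499 features with a value on only 1 lovastatin array are not described.

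**Figure D1:**
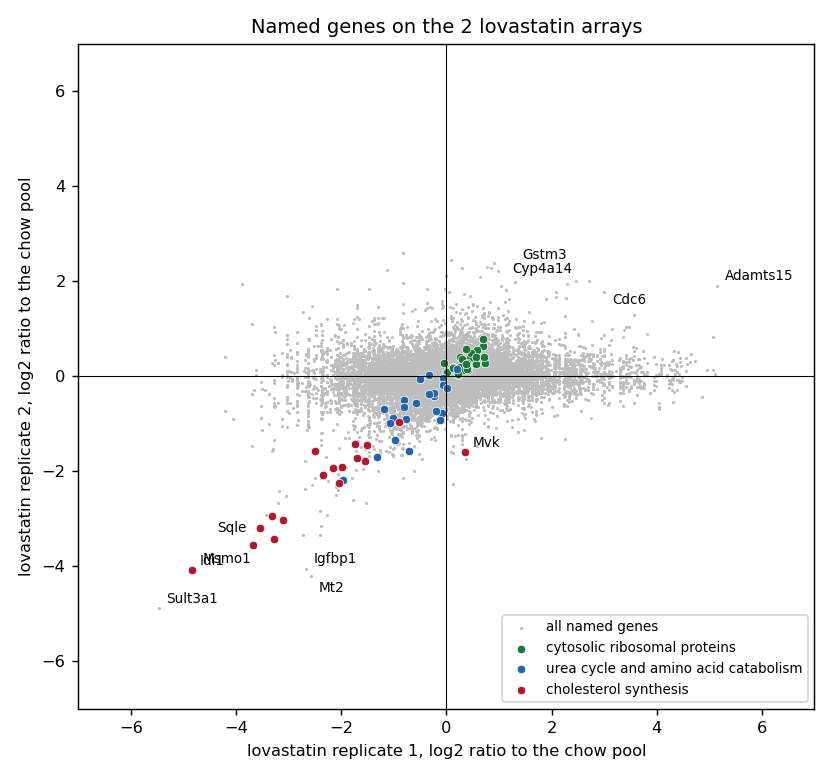
Each point is a named gene, with its log2 ratio to the chow pool on lovastatin replicate 1 (x axis) and replicate 2 (y axis); coloured points are genes of 3 lists. The cloud is wide along the x axis (SD 1.09) and narrow along the y axis (SD 0.420). Cholesterol synthesis genes lie at the lower left, except Mvk at 0.36 and -1.60.

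Genes of the mevalonate arm, which builds farnesyl diphosphate from acetyl-CoA, lay far below the pool in the lovastatin mice. Of 6 measured genes 5 lay at least 1 log2 unit below 0 on both arrays, and the list medians were -2.89 and -2.42, where the medians over all features were -0.02 and -0.01. Idi1, which interconverts the 5-carbon isoprene units, was at -4.83 and -4.08 in lovastatin mice, against -4.48 and -4.27 (put back) in HFC mice and -4.83 and -4.52 in fenofibrate mice. Its values in the 3 groups overlapped. Idi1 was lower than the pool by limma with the blocks put back (-4.46, SE 0.240, adjusted p = 0.037) and not as deposited (SE 0.990, adjusted p = 0.414), where HFC replicate 2 held 0.07.

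Hmgcs1, the synthase that makes HMG-CoA, was at -3.28 and -3.43 in lovastatin mice, against -3.67 in HFC replicate 1 and -3.14 and -3.31 in fenofibrate mice. HFC replicate 2 has no put back value for it. Fdps, farnesyl diphosphate synthase, was at -3.31 and -2.94 in lovastatin mice, against -3.38 and -3.69 in HFC mice and -3.16 and -4.09 in fenofibrate mice. The lovastatin values of Hmgcs1 lay within those of the other mice, and Fdps in lovastatin replicate 2 was the highest of the 6. Pmvk, phosphomevalonate kinase, was at -1.98 and -1.91, and Mvd, mevalonate diphosphate decarboxylase, at -2.50 and -1.57. Mvk, mevalonate kinase, differed in sign between the lovastatin arrays, at 0.36 and -1.60. The reductase that lovastatin inhibits was not analysed here.

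The enzymes from squalene to cholesterol showed the same picture: 11 of 11 measured genes lay below 0 on both lovastatin arrays and 10 by at least 1 log2 unit, with list medians of -2.04 and -1.93. The medians were -2.08 and -2.04 (put back) on the HFC arrays and -1.98 and -2.36 on the fenofibrate arrays. Msmo1, which removes the methyl groups at carbon 4 of the sterol ring, was at -3.68 and -3.56 in lovastatin mice, against -3.75 and -4.13 (put back) in HFC mice and -3.75 and -4.08 in fenofibrate mice. It was lower than the pool by limma with the blocks put back (-3.62, SE 0.194, adjusted p = 0.037) and not as deposited (SE 0.809, adjusted p = 0.414).

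Sqle, squalene epoxidase, was at -3.54 and -3.20 in lovastatin mice, against -3.48 and -3.06 in HFC mice and -4.10 and -4.49 in fenofibrate mice. Both fenofibrate values lay below all 4 others. Its lovastatin mean was -3.37 (SE 0.225, limma adjusted p = 0.124, and 0.0506 with the blocks put back). Dhcr7, the reductase of the last step, was at -3.10 and -3.02 in lovastatin mice, against -3.10 and -3.02 (put back) in HFC mice and -2.66 and -3.41 in fenofibrate mice. The other 8 genes, from Fdft1, squalene synthase, to Sc5d, a sterol desaturase, lay between -2.34 and -0.91 on the lovastatin arrays. Ebp, the isomerase at -0.91 and -0.97, was the member closest to 0.

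**Figure D2:**
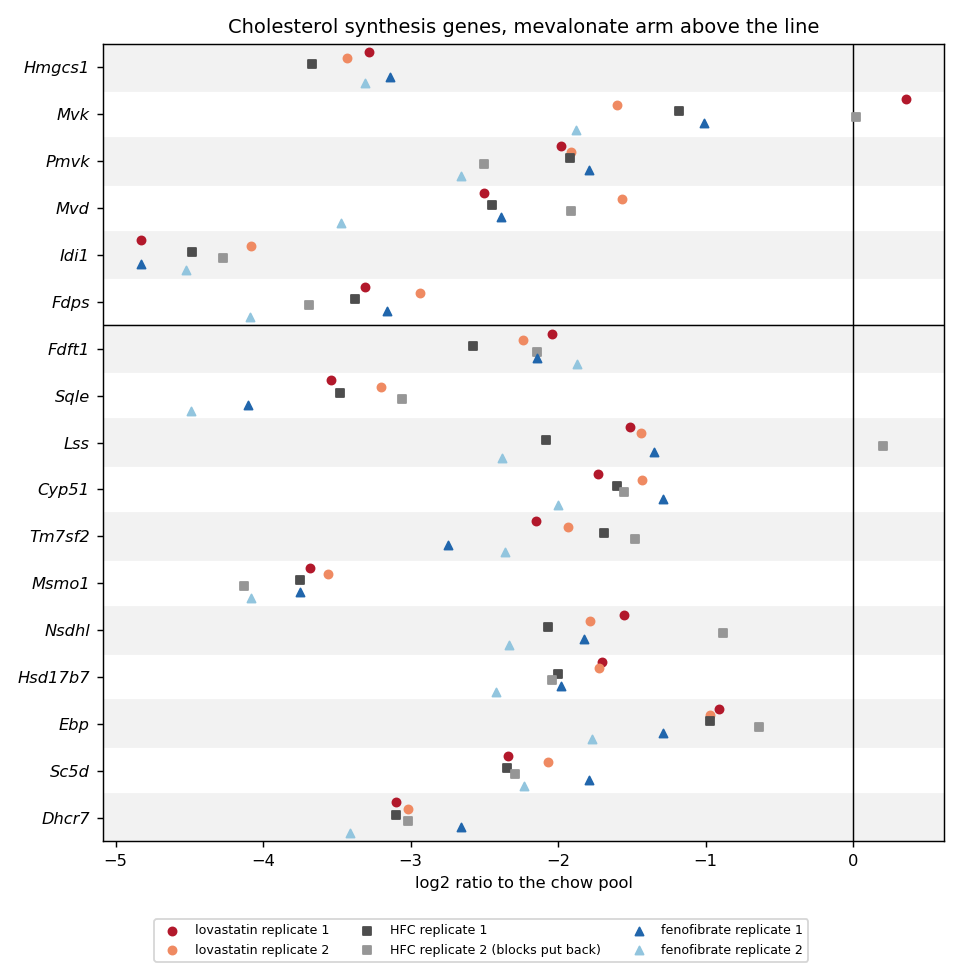
Log2 ratio to the chow pool (x axis) of the 17 measured cholesterol synthesis genes, 1 point per array, with the mevalonate arm above the line and the enzymes from squalene on below it. Lovastatin points (circles) overlap the range of the HFC (squares, replicate 2 put back) and fenofibrate (triangles) points in most genes; for Msmo1 and Hsd17b7 both lie to the right of all others. Mvk has a lovastatin array above 0, at 0.36.

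The promoters of Idi1, Msmo1 and Hmgcs1, the 3 lowest of these enzymes by the array nearer to 0, are printed because this family lay low together, and because sterol-regulated promoters are known for sterol elements bound by SREBP with CCAAT boxes bound by NF-Y close by. Sequences are RefSeq's, build GRCm38.p6, from 250 bases before to 50 after the annotated start, 5′ to 3′ on the gene's strand. Capitals mark matches on either strand to a sterol element spelled TCACNCCA and to CCAAT, which reads as its reverse complement when on the opposite strand. The 2 kinds of match do not overlap. Hmgcs1 lies at chr13:119690101-119690400 on the plus strand, Msmo1 at chr8:64733529-64733828 on the minus strand and Idi1 at chr13:8885356-8885655 on the plus strand.
Hmgcs1: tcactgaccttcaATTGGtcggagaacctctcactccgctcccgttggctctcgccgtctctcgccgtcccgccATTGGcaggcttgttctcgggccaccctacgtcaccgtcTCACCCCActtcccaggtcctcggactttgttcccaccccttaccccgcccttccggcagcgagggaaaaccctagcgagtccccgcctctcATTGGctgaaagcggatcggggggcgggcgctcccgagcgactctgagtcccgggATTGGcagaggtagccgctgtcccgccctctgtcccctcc
Msmo1: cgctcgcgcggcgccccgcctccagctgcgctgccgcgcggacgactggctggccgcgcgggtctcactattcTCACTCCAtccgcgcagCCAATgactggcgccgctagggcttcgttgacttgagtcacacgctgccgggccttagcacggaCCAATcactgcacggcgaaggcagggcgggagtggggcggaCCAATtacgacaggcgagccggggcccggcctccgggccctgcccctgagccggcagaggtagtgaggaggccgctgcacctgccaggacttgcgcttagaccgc
Idi1: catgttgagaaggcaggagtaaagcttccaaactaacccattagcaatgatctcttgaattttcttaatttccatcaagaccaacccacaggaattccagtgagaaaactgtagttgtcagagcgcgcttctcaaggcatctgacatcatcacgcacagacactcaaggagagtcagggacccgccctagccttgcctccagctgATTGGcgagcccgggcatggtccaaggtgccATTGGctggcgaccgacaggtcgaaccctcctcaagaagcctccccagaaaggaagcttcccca

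Of the 17 measured cholesterol synthesis genes, 14 had an entry in the promoter table, with 17 promoters. A CCAAT box stood in 14 of these 17 promoters (82.4%) and in at least 1 promoter of each of the 14 genes, while 37.4% of all 32851 promoters hold one. The sterol element as spelled above was found in 2 of the 17 (11.8%), those of Hmgcs1 and Msmo1, and in 4.36% of all promoters. With an A required before it and a C after it, the element was found in 0 of the 17 and in 0.234% of all promoters. These spellings were chosen with the sequences in view, and a match is a description of letters, not a site.

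Sterol sensing and uptake genes did not share 1 direction in the lovastatin mice. Of 13 measured, 5 lay above and 5 below 0 on both arrays, where 27.9% and 29.8% of all features did so. Insig1, which holds SREBP in the endoplasmic reticulum and is itself an SREBP target, was at -2.39 and -1.45 in lovastatin mice, against -2.95 and -1.57 in HFC mice and -1.03 and -2.23 in fenofibrate mice. Its relative Insig2 lay on the other side of 0, at 1.30 and 1.03 in lovastatin mice, against 2.02 and 1.94 in HFC mice and 0.95 and 1.17 in fenofibrate mice. Both lovastatin values of Insig2 lay below both HFC values, with a difference of -0.82 (95% interval -1.49 to -0.142) that was not past the threshold (limma adjusted p = 0.804).

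Srebf2, the SREBP of sterol synthesis, was at -0.37 and -0.61 in lovastatin mice, and Srebf1, the SREBP of fatty acid synthesis, at 0.61 and 0.71. For Srebf1 the values were -0.45 and 0.02 (put back) in HFC mice and 0.64 and -0.26 in fenofibrate mice. Scarb1, the receptor that takes up HDL cholesterol, was at 1.18 and 1.11 in lovastatin mice, against 1.07 and 0.65 (put back) in HFC mice and 0.63 and 0.24 in fenofibrate mice. Stard4, a sterol carrier, and Npc1, which moves sterol out of lysosomes, lay below 0 on both lovastatin arrays, at -1.54 and -0.35 and at -0.29 and -0.13.

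Sterol export genes and other LXR targets lay above the pool more often than below it. On both lovastatin arrays 7 of 12 were above 0 and 1, the phospholipid transfer protein Pltp, was below. The shares over all features were 27.9% and 29.8%. Abcg5, a canalicular half-transporter that sends sterols into bile, was at 1.45 and 1.07 in lovastatin mice, against 1.26 and 1.33 in HFC mice and 1.58 and 1.05 in fenofibrate mice. Its partner Abcg8 was at 0.52 and 0.23 in lovastatin mice. Abca1, which loads cholesterol onto apolipoprotein A-I, was at 0.82 and 0.49, and Lpl, lipoprotein lipase, at 0.68 and 1.29. Both lovastatin values of Lpl lay below all 4 other values, which were 1.92 and 1.70 in HFC mice and 2.54 and 2.12 in fenofibrate mice. Scd1, a stearoyl-CoA desaturase that LXR and SREBP1 both drive, differed in sign, at -0.28 and 0.25.

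Because mevalonate also feeds protein prenylation, ubiquinone and dolichol, 21 genes of those branches were listed and 20 measured. They stood near the pool: 8 lay above and 4 below 0 on both lovastatin arrays, 0 by as much as 1 log2 unit, and the medians were 0.16 and 0.12. The farthest by the nearer array was Rabggta, a subunit of Rab geranylgeranyl transferase, at -1.42 and -0.51. Coq5, a methylase of ubiquinone synthesis, was at 1.95 and 0.46, and Pggt1b, of protein geranylgeranylation, at 2.01 and 0.38, each much farther from 0 on the wide array.

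Bile acid synthesis genes were led by both sterol hydroxylases. Cyp8b1, which makes the cholic acid branch, was at -3.18 and -2.42 in lovastatin mice, against -2.79 and -2.58 in HFC mice and -2.81 and -3.09 in fenofibrate mice. Cyp7a1, which sets the rate of the classic bile acid pathway, was at -1.96 and -2.16 in lovastatin mice, against -1.67 and -1.40 in HFC mice and -2.11 and -2.67 in fenofibrate mice. Both were more than 1 log2 unit below the pool in every diet-fed mouse measured, and their lovastatin means were -2.80 (SE 0.249, limma adjusted p = 0.161) and -2.06 (SE 0.223, limma adjusted p = 0.178).

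In the whole list of 21 bile acid synthesis and feedback genes 11 lay below and 4 above 0 on both lovastatin arrays. The shares over all features were 29.8% and 27.9%. Nr0b2, the receptor SHP that represses Cyp7a1, was at 0.88 and 0.74, and Hsd3b7, which converts the sterol ring early in the pathway, at -0.67 and -0.78. Among 16 transport genes 7 lay above and 3 below 0. The bile salt export pump Abcb11 was at 0.57 and 1.10 in lovastatin mice, against 1.58 and 1.64 in HFC mice and 0.73 and 0.90 in fenofibrate mice. Slc22a7, an organic anion transporter, was at -1.66 and -1.74 in lovastatin mice, against -1.48 and -1.50 (put back) in HFC mice and -1.68 and -2.40 in fenofibrate mice. The phospholipid floppase Abcb4 was at 0.53 and 0.50.

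Fatty acid omega-hydroxylases were split: 5 of 10 lay above 0 on both lovastatin arrays, among them the 4 Cyp4a genes measured, and 5 lay below. The list medians were -0.04 and 0.02, and Cyp4f14 was at -1.68 and -0.71. Cyp4a14, known as a target of PPARα, the receptor that fenofibrate activates, was at 2.29 and 1.94 in lovastatin mice, against 1.28 and 0.58 (put back) in HFC mice and 2.98 and 2.54 in fenofibrate mice. The lovastatin values lay between those of the other groups without overlap. With the blocks put back its difference from HFC was 1.19 (95% interval 0.300 to 2.07, limma adjusted p = 0.821). Its relatives Cyp4a10, at 1.01 and 0.58, and Cyp4a31, at 1.54 and 0.96, were highest in fenofibrate mice, at 2.15 and 1.70 and at 3.01 and 2.79.

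Of 19 acyl-CoA thioesterases and synthetases with both arrays 4 lay above 0 on both and 10 below. Acot1, a thioesterase among those above, was at 1.89 and 1.63 in lovastatin mice, against 2.48 and 1.48 in HFC mice and 3.76 and 4.05 in fenofibrate mice. Fabp2, a fatty acid binding protein, was at 1.58 and 1.35 in lovastatin mice, against 1.80 and 1.69 in HFC mice and 2.58 and 2.26 in fenofibrate mice. Both lovastatin values of Fabp2 were the lowest of the 6. The thioesterases Acot3, at -0.15 and -0.62, and Acot4, at -1.06 and -0.12, lay below 0. Of 15 peroxisomal beta-oxidation genes 10 lay above and 3 below 0 on both lovastatin arrays, where 27.9% and 29.8% of all features did so. The list medians were 0.27 and 0.11. Ehhadh, the bifunctional enzyme of that pathway, was at 0.79 and 0.84 in lovastatin mice, against 1.03 and 0.71 (put back) in HFC mice and 2.34 and 1.81 in fenofibrate mice.

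Over all features 27.9% lay above 0 on both lovastatin arrays and 29.8% below. Mitochondrial fatty acid oxidation and ketogenesis genes lay above in 11 of 20 and below in 5, with medians of 0.30 and 0.07. Among them Cpt2, which reforms acyl-CoA inside the mitochondrion, was at 0.48 and 0.30, and Acat1, an acetoacetyl-CoA thiolase, at -0.34 and -0.82. Pdk4, the kinase that turns off pyruvate dehydrogenase in fasting, was at -0.03 and -0.05. Lipid droplet genes lay above 0 in 9 of 18 and below in 3. Plin5, which coats droplets in oxidative tissues, was at 1.73 and 0.77 in lovastatin mice, against 1.43 and 1.28 in HFC mice and 0.94 and 1.20 in fenofibrate mice. G0s2, an inhibitor of adipose triglyceride lipase, was at 0.94 and 0.75 in lovastatin mice, above all 4 other values, which ran from -0.70 to 0.20.

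Lipogenic genes leaned low: 16 of 26 with both arrays lay below 0 and 3 above, where 29.8% and 27.9% of all features did so. The list medians were -0.43 and -0.29. Acacb, the acetyl-CoA carboxylase at the mitochondrial surface, was at -3.06 and -2.52 in lovastatin mice, against -2.46 and -0.02 (put back) in HFC mice and -1.39 and -2.07 in fenofibrate mice. Fasn, fatty acid synthase, was at -2.21 and -0.74, Thrsp, a thyroid-responsive lipogenic protein, at -2.39 and -1.20, and Acly, ATP citrate lyase, at -0.92 and -1.34. Acss2, which activates acetate and is a known SREBP target, was at -2.55 and -2.28 in lovastatin mice, against -2.21 and -2.96 (put back) in HFC mice and -2.50 and -2.58 in fenofibrate mice. Lpin1, a phosphatidate phosphatase, was at -0.92 and -1.25 in lovastatin mice, against -0.07 and 0.29 (put back) in HFC mice and -0.77 and -1.0 in fenofibrate mice.

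Apolipoprotein and lipoprotein assembly genes were split, with 7 above and 9 below 0 among 17, where 27.9% and 29.8% of all features did so. Apob, the core protein of VLDL, was at 0.60 and 0.59 over 4 probes, and Apoc2, the activator of lipoprotein lipase, at 1.19 and 0.97. Angptl4, which inhibits that lipase, was at -1.03 and -1.64 in lovastatin mice, against 0.83 and 0.15 in HFC mice and -1.46 and -0.98 in fenofibrate mice. The lovastatin and HFC values did not overlap. The difference was -1.83 (95% interval -2.81 to -0.841, limma adjusted p = 0.804). Angptl8, another inhibitor of the lipase that is raised by feeding, was at 2.08 and 1.77 in lovastatin mice, against 1.08 and 1.89 in HFC mice and 0.89 and 0.29 in fenofibrate mice.

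**Figure D3:**
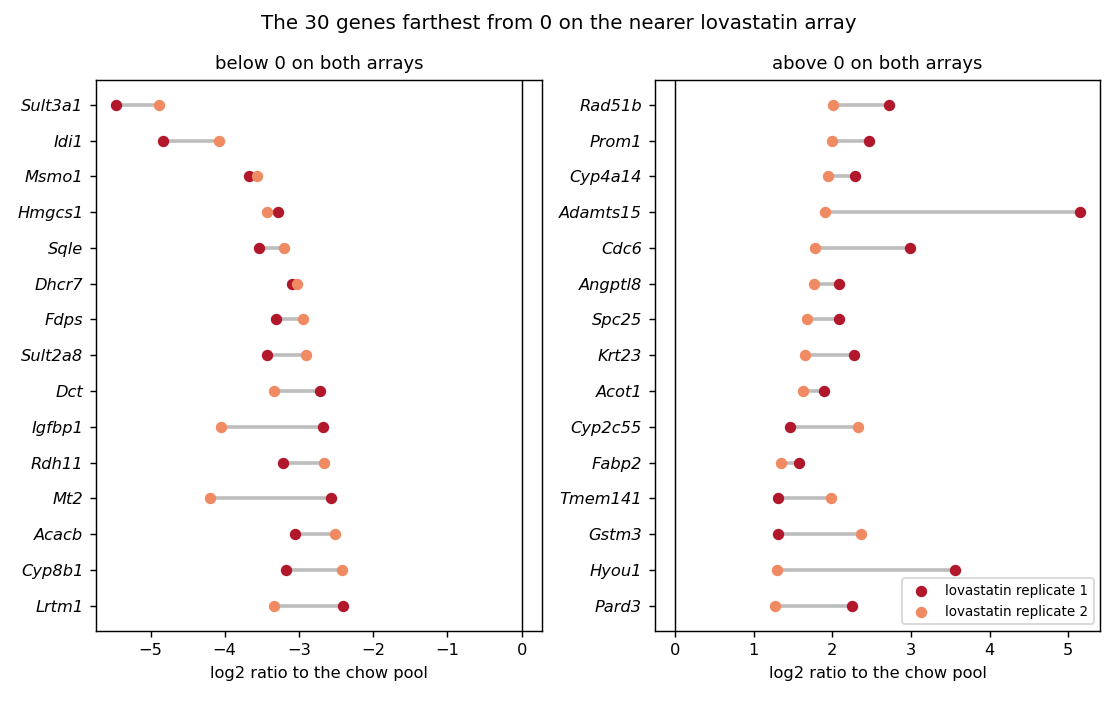
Log2 ratio to the chow pool (x axis) on lovastatin replicates 1 and 2 for the 15 genes lowest and the 15 highest by the array nearer to 0; lines join the 2 arrays of a gene. The 2 arrays are close for some genes (Msmo1 at -3.68 and -3.56) and far apart for others, both low (Mt2 at -2.57 and -4.20) and high (Adamts15 at 5.15 and 1.91).

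Ranked by the lovastatin array nearer to 0, the lowest named gene was Sult3a1, a cytosolic sulfotransferase. It was at -5.46 and -4.88 in lovastatin mice, against -4.91 and -3.50 in HFC mice and -5.80 and -6.34 in fenofibrate mice. Its mean was -5.17 (SE 0.384, limma adjusted p = 0.124). Sult2a8, of the bile acid and steroid sulfotransferase family, was at -3.43 and -2.91 in lovastatin mice, against -3.28 and -3.95 (put back) in HFC mice and -2.33 and -1.96 in fenofibrate mice. Of 12 listed sulfotransferase genes measured, which do not include Sult2a8, 7 lay below and 2 above 0 on both lovastatin arrays. Over all features 29.8% and 27.9% did so. Among those below was Sult1e1, the oestrogen sulfotransferase, at -2.49 and -2.14.

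Rdh11, a retinol dehydrogenase, was at -3.21 and -2.66 in lovastatin mice, lower than all 4 other values, which were -2.58 and -2.25 in HFC mice and -2.48 and -2.59 in fenofibrate mice. The gap to the nearest of them was 0.07. Dio1, which activates thyroid hormone, was at -2.25 and -2.21 in lovastatin mice, against -2.35 and -2.46 in HFC mice and -2.37 and -2.44 in fenofibrate mice, with a limma adjusted p of 0.124. Mup5, a major urinary protein, was at -2.69 and -2.37 in lovastatin mice, and Elovl3, a fatty acid elongase, at -1.08 and -1.12. These 2 belong with Sult3a1 and Dio1 to the list of growth hormone axis and target genes. Of 21 in that list 11 lay below and 5 above 0 on both lovastatin arrays, where 29.8% and 27.9% of all features did so. Those above were Stat5a, Socs2, Cyp4a12a, Hsd3b5 and Cux2. Whether the members share 1 response of the axis was not tested. Dct, dopachrome tautomerase, at -2.72 and -3.33, and Lrtm1 at -2.41 and -3.33 complete the 15 lowest. The next gene outside them was Ppp1r3g at -2.40 and -2.84.

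The highest named genes were Rad51b, of recombination repair, at 2.72 and 2.01 in lovastatin mice, and Prom1, a membrane glycoprotein and ductular marker, at 2.47 and 2.0. Prom1 was at 2.23 and 1.17 in HFC mice and at 1.78 and 1.60 in fenofibrate mice. Krt23, a keratin, was at 2.27 and 1.65 in lovastatin mice, against 1.76 and 2.10 (put back) in HFC mice and 3.34 and 2.83 in fenofibrate mice. Adamts15, a secreted metalloproteinase, was at 5.15 and 1.91 in lovastatin mice and Hyou1, a chaperone of the endoplasmic reticulum, at 3.56 and 1.29. Prom1 and Krt23 do not stand for their list: of 11 cholangiocyte and ductular markers 4 lay above and 4 below 0 on both lovastatin arrays, with medians of 0.16 and -0.08. Among those below, Cldn4, a tight junction claudin, was at -1.13 and -0.85 and Cftr, a chloride channel, at -1.29 and -0.53.

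In Adamts15 and Hyou1 replicate 1 was much farther from 0 than replicate 2. Spc25, a kinetochore protein, was at 2.09 and 1.68, Tmem141 at 1.31 and 1.98, and Pard3, a polarity protein and the last of the 15, at 2.25 and 1.27. Just outside stood Tubb2a, a tubulin, at 1.32 and 1.21.

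Both metallothioneins, small proteins that bind zinc and copper and respond to metals and glucocorticoids, were low in the lovastatin mice. Mt1 was at -2.28 and -2.91 in lovastatin mice, against -0.05 and 1.08 in HFC mice and -1.27 and -1.43 in fenofibrate mice. Mt2 was at -2.57 and -4.20 in lovastatin mice, against -1.04 and 1.56 in HFC mice and -1.75 and -2.72 in fenofibrate mice. For Mt1 both lovastatin values lay below all 4 others, and for Mt2 fenofibrate replicate 2 lay among them. The differences from HFC were -3.11 for Mt1 (95% interval -4.26 to -1.96) and -3.65 for Mt2 (95% interval -6.11 to -1.18), and neither passed over all features (limma adjusted p = 0.804 for both).

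The promoters of the metallothionein pair are printed because these neighbouring genes lay low together and are known for metal response elements. Capitals mark matches on either strand to TGCACNC or TGCGCNC, the core of that element, in the same build and window. Mt1 lies at chr8:94178839-94179138 and Mt2 at chr8:94172368-94172667, both on the plus strand.
Mt1: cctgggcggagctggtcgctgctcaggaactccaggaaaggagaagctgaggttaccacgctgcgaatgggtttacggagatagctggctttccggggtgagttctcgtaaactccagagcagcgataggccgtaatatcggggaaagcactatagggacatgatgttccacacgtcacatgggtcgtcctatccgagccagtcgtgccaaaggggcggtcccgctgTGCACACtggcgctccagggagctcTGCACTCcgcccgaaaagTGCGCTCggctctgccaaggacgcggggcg
Mt2: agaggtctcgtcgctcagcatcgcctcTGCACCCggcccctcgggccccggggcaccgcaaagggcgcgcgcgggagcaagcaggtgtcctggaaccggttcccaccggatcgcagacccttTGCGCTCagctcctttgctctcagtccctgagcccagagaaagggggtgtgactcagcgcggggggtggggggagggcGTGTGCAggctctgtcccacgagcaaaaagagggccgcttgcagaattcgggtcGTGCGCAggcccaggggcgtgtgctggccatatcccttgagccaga
One or more matches stood in 25.7% of all 32851 promoters, and the Mt1 and Mt2 windows hold 3 and 4.

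Igfbp1, which binds insulin-like growth factors and is repressed by insulin, was at -2.67 and -4.05 in lovastatin mice, against -0.92 and -2.09 (put back) in HFC mice and -1.95 and -2.92 in fenofibrate mice. With the blocks put back its difference from HFC was -1.86 (95% interval -3.51 to -0.200, limma adjusted p = 0.821). It belongs to a list of glucose production and glycolysis genes of which 13 of 17 lay below 0 on both lovastatin arrays and 0 above, with medians of -0.47 and -0.34. The shares over all features were 29.8% below and 27.9% above. G6pc, glucose-6-phosphatase, was at -1.34 and -1.32 in lovastatin mice, against -0.19 and -1.34 in HFC mice and -2.17 and -2.78 in fenofibrate mice. Pck1, the gluconeogenic carboxykinase, was at -0.61 and -1.99 in lovastatin mice, against 0.41 and 0.64 (put back) in HFC mice and -2.22 and -1.18 in fenofibrate mice. For Pck1 the lovastatin and HFC values did not overlap.

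Urea cycle and amino acid catabolism genes lay below the pool in 20 of 23 cases on both lovastatin arrays and above in 1, Nags, where 29.8% of all features lay below on both. The list medians were -0.51 and -0.64 in lovastatin mice, against -0.73 and -0.48 (put back) in HFC mice and -0.53 and -0.65 in fenofibrate mice. Bhmt, which remethylates homocysteine with betaine, was at -1.97 and -2.18 in lovastatin mice, against -1.66 and -2.09 in HFC mice and -1.67 and -1.83 in fenofibrate mice. Prodh, of proline breakdown, was at -1.32 and -1.70 and Gnmt, a methyltransferase that disposes of excess methionine, at -1.08 and -0.98. Hepatocyte markers lay low as well: 9 of 11 lay below 0 on both lovastatin arrays, with medians of -0.50 and -0.64, and Alb, albumin, was at -1.36 and -0.64. Ratios to another liver cannot show whether a marker is present, and in whole liver fewer cells of a type and less RNA per cell cannot be told apart. The part of hepatocyte RNA content in the low values was not tested.

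Cytosolic ribosomal protein genes lay just above the pool: 26 of 27 lay above 0 on both lovastatin arrays and 0 below, where 27.9% of all features lay above on both. The medians were small, 0.38 and 0.27 in lovastatin mice, against 0.29 and 0.15 (put back) in HFC mice and 0.03 and 0.07 in fenofibrate mice. Rps6, a protein of the small subunit, was at 0.69 and 0.65 in lovastatin mice, against 0.33 and 0.32 in HFC mice and 0.29 and 0.19 in fenofibrate mice. Both lovastatin values lay above the other 4. Respiratory chain genes leaned the other way, with 16 of 31 below 0 on both lovastatin arrays and 7 above. The shares over all features were 29.8% and 27.9%. The list medians were -0.14 and -0.14 on the lovastatin arrays, against -0.06 and -0.01 (put back) on the HFC arrays and 0.27 and 0.16 on the fenofibrate arrays.

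Chaperone and unfolded protein response genes were above 0 on both lovastatin arrays in 15 of 25 and below in 2. The shares over all features were 27.9% and 29.8%. The list median was 0.15 on replicate 1 and 0.78 on replicate 2, against 0.14 and 0.34 (put back) in HFC mice and 0.11 and 0.04 in fenofibrate mice. Hspa1a, an inducible heat shock protein, was at 1.86 and 1.14 in lovastatin mice, against 0.57 and 0.91 in HFC mice and -0.53 and 0.04 in fenofibrate mice. Hsph1, a co-chaperone, was at 0.78 and 2.31, and Creld2, of the endoplasmic reticulum, at 0.30 and 2.29. Hspa5, the BiP chaperone, was at 0.09 on replicate 1 and 1.27 on replicate 2, so that the size of this group rests largely on replicate 2.

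The arrays disagreed on cell division genes. The median of 24 genes was -0.09 on lovastatin replicate 1 and 0.85 on replicate 2, against 0.58 and 0.45 (put back) in HFC mice and 0.95 and 1.30 in fenofibrate mice. Mki67, a proliferation marker, was at -1.18 and 1.22 in lovastatin mice, and Top2a, the mitotic topoisomerase, at -1.31 and 1.47. Still, 11 of 24 lay above 0 on both arrays and 0 below, where 27.9% and 29.8% of all features did so. The 11 include Cdkn1a, Gadd45a and Gadd45b, which are known for growth arrest and not for division. Cdc20, an activator of the anaphase complex, was at 0.84 and 2.28, and Cdk1, the mitotic kinase, at 1.76 and 0.93. Cdc6, which licenses replication origins and is not in the list, was at 2.99 and 1.78. For Cdc6 the other mice were lower, at 0.35 and 0.96 (put back) in HFC mice and 0.30 and 0.54 in fenofibrate mice.

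Drug-metabolizing genes were mixed. Of 27 P450 genes of families 1 to 3, 10 lay above and 15 below 0 on both lovastatin arrays. Over all features 27.9% and 29.8% did so. Cyp2c55 was at 1.46 and 2.32 in lovastatin mice, against 3.13 and 3.00 (put back) in HFC mice and 2.34 and 2.32 in fenofibrate mice. Cyp3a11, a target of the xenobiotic receptor PXR, was at 0.58 and 1.48 in lovastatin mice, against 2.33 and 1.71 in HFC mice and 1.42 and 1.76 in fenofibrate mice. Cyp3a16 was at -2.38 and -3.15, and Cyp2b10, a target of the receptor CAR, at -0.41 and -0.19.

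Of 23 glutathione and glucuronosyl transferases 9 lay above and 10 below 0 on both lovastatin arrays, where 27.9% and 29.8% of all features did so. The mu class of glutathione transferases was itself split, with Gstm3 at 1.31 and 2.36 and Gstm1 at 0.91 and 2.38 in lovastatin mice, but Gstm4 at -0.33 and -0.08 and Gstm5 at -0.33 and -0.30. In HFC mice Gstm3 was at 2.67 and 3.31 (put back) and Gstm1 at 2.52 and 2.87, above the lovastatin values. The mu class genes are close relatives, and cross-hybridisation between them was not tested. In the whole list 8 genes had both lovastatin values below all 4 other arrays, where 6.75% of 18483 features did so. Gstt3, of the theta class, was at -0.98 and -0.92 in lovastatin mice, against -0.58 and -0.47 in HFC mice and -0.21 and -0.09 in fenofibrate mice.

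Among NRF2 targets and glutathione synthesis genes 11 of 20 lay above 0 on both lovastatin arrays and 5 below. The shares over all features were 27.9% and 29.8%. The 5 below were Nqo1, a well-known NRF2 target, Slc7a11, Prdx1, Taldo1 and Pgd, so the list did not share 1 direction. Gclc and Gclm, the subunits of the enzyme that begins glutathione synthesis, were at 1.20 and 1.63 and at 1.14 and 0.95 in lovastatin mice. Ephx1, microsomal epoxide hydrolase, was at 1.08 and 1.30. In HFC mice Gclc was at 1.57 and 1.06, Gclm at 1.09 and 0.97 and Ephx1 at 1.34 and 1.51, so the groups overlapped for Gclc and Gclm, while both HFC values of Ephx1 lay above both lovastatin values.

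**Figure D4:**
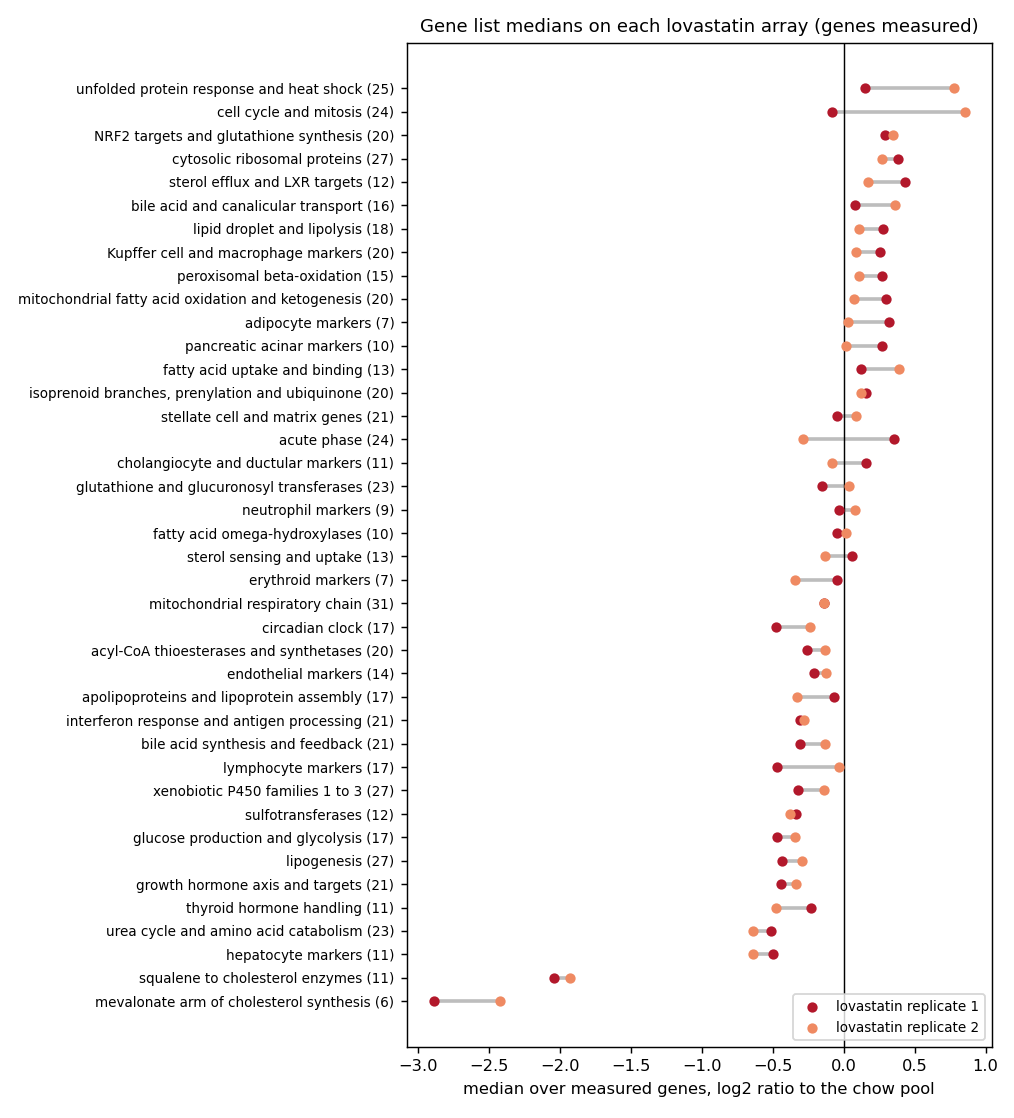
Median log2 ratio to the chow pool (x axis) of the gene lists described on lovastatin replicates 1 and 2, with the number of genes measured in brackets and lists ordered by the median of gene means. The cholesterol synthesis lists stand apart at the bottom; cell cycle genes have medians of -0.09 and 0.85 on the 2 arrays.

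Kupffer cell and macrophage markers lay above 0 on both lovastatin arrays in 12 of 20 and below in 3, with medians of 0.26 and 0.09, against 0.04 and 0.06 (put back) in HFC mice and -0.23 and -0.33 in fenofibrate mice. Adgre1, a surface receptor of resident macrophages, was at 0.22 and 0.46, Cd5l, an inhibitor of macrophage apoptosis, at 0.42 and 0.48, and Cd163, a haemoglobin scavenger receptor, at -0.64 and -0.63 in lovastatin mice. Lymphocyte markers lay below 0 in 8 of 17 and above in 3, with Gzma, a granzyme, at -0.59 and -0.62. Endothelial markers were below 0 in 8 of 14, stellate cell and matrix genes above in 6 of 21, and neutrophil markers above in 2 of 9. Over all features 27.9% lay above 0 on both lovastatin arrays and 29.8% below. The stellate and neutrophil counts stood near the share above. Of 10 pancreatic acinar markers 5 lay above 0 and 1 below, with medians of 0.27 and 0.01, and Pnliprp1, a lipase relative, was at 3.47 and 1.04 in lovastatin mice, against 1.01 and 0.28 (put back) in HFC mice and 2.27 and 2.96 in fenofibrate mice. Of 7 adipocyte markers 3 lay above 0 and 1 below, with medians of 0.32 and 0.03. In both lists the median lay farther from 0 on replicate 1, the wide array.

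Against the HFC mice, the comparison in which pool and dye cancel, lovastatin gave 0 of 19501 features past the threshold by limma (0%), with 538 at an unadjusted p under 0.05 (2.76%) and a smallest adjusted p of 0.804. The median 95% interval of a difference reached 0.932 log2 units on either side of the estimate. These figures use the values as deposited, where 50.3% of the probes on HFC replicate 2 hold displaced values, so the HFC mean is affected there. With the blocks put back 0 of 19501 features passed and 604 had an unadjusted limma p under 0.05. The median interval then reached 0.88 log2 units on either side. For sterol synthesis the lovastatin minus HFC difference of Sqle was -0.10 (95% interval -0.892 to 0.692) and that of Fdps 0.41 (95% interval -0.583 to 1.40), with limma adjusted p of 0.942 and 0.812. These intervals allow changes in either direction, and a p that misses the threshold does not show that the groups were alike.

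Against the fenofibrate mice 0 of 19459 features passed (0%), with 1120 at an unadjusted p under 0.05 (5.76%) and a smallest limma adjusted p of 0.710. The 5 genes of smallest p with the values as deposited were Gse1, Hoxa9, Mro, Ifit1bl2 and Slc39a5, all at a limma adjusted p of 0.710. Mro and Slc39a5 lie in displaced blocks, which enter the shared spread. The unadjusted limma p of Mro was 0.00051 as deposited and 0.0115 with the blocks put back. That of Slc39a5 was 0.000915 and 0.00119. Slc39a5, a zinc importer, was near the pool in lovastatin mice at 0.12 and 0.11, against 0.06 and 0.54 (put back) in HFC mice and 2.22 and 1.75 in fenofibrate mice. Mro was at 1.15 and 1.22 in lovastatin mice, against 1.17 and -0.30 (put back) in HFC mice and -0.66 and -0.70 in fenofibrate mice.

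Both lovastatin arrays lay above all 4 HFC and fenofibrate arrays in 1007 of 18483 features (5.45%) and below them in 1247 (6.75%), with HFC replicate 2 taken both as deposited and put back. Whether these shares exceed what chance gives was not tested. The widest gap belonged to Gse1, at -2.38 and -2.13 in lovastatin mice, against -0.22 and 0.25 in HFC mice and 0.07 and 0.34 in fenofibrate mice. The nearer lovastatin array was 1.91 log2 units below the nearest other array. The genes with the widest gaps, Mt1 among them, were picked by the same arrays that give their differences from HFC. Their 95% intervals are not adjusted for that choice, so an interval that leaves out 0 is no separate support. Gse1 also had the smallest p against HFC, with a difference of -2.27 (95% interval -3.03 to -1.51, unadjusted p = 0.000414, limma adjusted p = 0.804). Its mean against the pool was -2.26 (SE 0.216, limma adjusted p = 0.162).

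Hoxa9, a homeobox factor, was at -1.38 and -0.98 in lovastatin mice, against 0.79 and 0.70 in HFC mice and 1.02 and 1.77 in fenofibrate mice. Ifit1bl2, of an interferon-induced family, was at -1.75 and -1.74 in lovastatin mice, against 0.06 and -0.28 in HFC mice and 0.02 and 0.27 in fenofibrate mice. Its difference from HFC was -1.64 (95% interval -2.33 to -0.942, limma adjusted p = 0.804). Avil, the actin-binding protein advillin, was at -1.28 and -1.37 in lovastatin mice, against 0.35 and 0.64 in HFC mice and 0.45 and 0.03 in fenofibrate mice. Adcy2, an adenylyl cyclase, was at -1.70 and -1.17 in lovastatin mice, against 0.42 and 0.47 in HFC mice and -0.10 and -0.11 in fenofibrate mice. The differences from HFC were -1.82 for Avil (95% interval -2.55 to -1.09) and -1.88 for Adcy2 (95% interval -2.61 to -1.15), both at a limma adjusted p of 0.804.

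Acsl6, a long-chain acyl-CoA synthetase measured with 2 probes, at least 1 of them in a displaced block, was at -0.51 and -0.30 in lovastatin mice, against 1.39 and 0.72 (put back) in HFC mice and 0.35 and 0.77 in fenofibrate mice. Npnt, the matrix protein nephronectin, was at -1.70 and -1.36 in lovastatin mice, against 0.19 and -0.47 (put back) in HFC mice and 0.02 and -0.44 in fenofibrate mice. With the blocks put back the differences from HFC were -1.46 and -1.39 (95% intervals -2.30 to -0.619 and -2.26 to -0.519). Neither passed the threshold, with a limma adjusted p of 0.821 for Acsl6. Acad12, an acyl-CoA dehydrogenase relative, was at -0.73 and -0.71 in lovastatin mice and between 0.30 and 1.40 in the other 4. Vmn1r32 and Vmn2r26, vomeronasal receptors, were also among the 10 lowest by this gap, at -0.85 and -1.66 and at -1.73 and -0.88, in a family whose SD was 1.23 on lovastatin replicate 1.

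Above the other arrays, the widest gap was that of Ermap, an erythroid membrane protein, at 1.80 and 1.12 in lovastatin mice, against -0.45 and -1.41 in HFC mice and -0.03 and -0.02 in fenofibrate mice. The difference from HFC was 2.39 (95% interval 1.32 to 3.46, limma adjusted p = 0.804). Erythroid markers did not share that direction: of 6 with both arrays 0 lay above 0 and 3 below, among them Klf1, the erythroid Krüppel-like factor, at -0.86 and -1.26. Mcm4, a helicase subunit of replication, was at 1.47 and 1.17 in lovastatin mice, against 0.11 and 0.15 in HFC mice and 0.29 and 0.48 in fenofibrate mice. Hepacam, a cell adhesion protein, was at 0.48 and 0.49 in lovastatin mice, against -0.52 and -0.38 in HFC mice and -0.83 and -0.77 in fenofibrate mice. Gli2, a hedgehog transcription factor, was at 2.55 and 0.65, Asb15 at 1.16 and 0.93, Stxbp4 at 1.14 and 0.78, and Neu4, a sialidase, at 1.16 and 0.35 in lovastatin mice. Lelp1, at 1.56 and 0.87, and Col26a1, a collagen, at 1.12 and 0.59, complete the 10 with Cdc6.

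**Figure D5:**
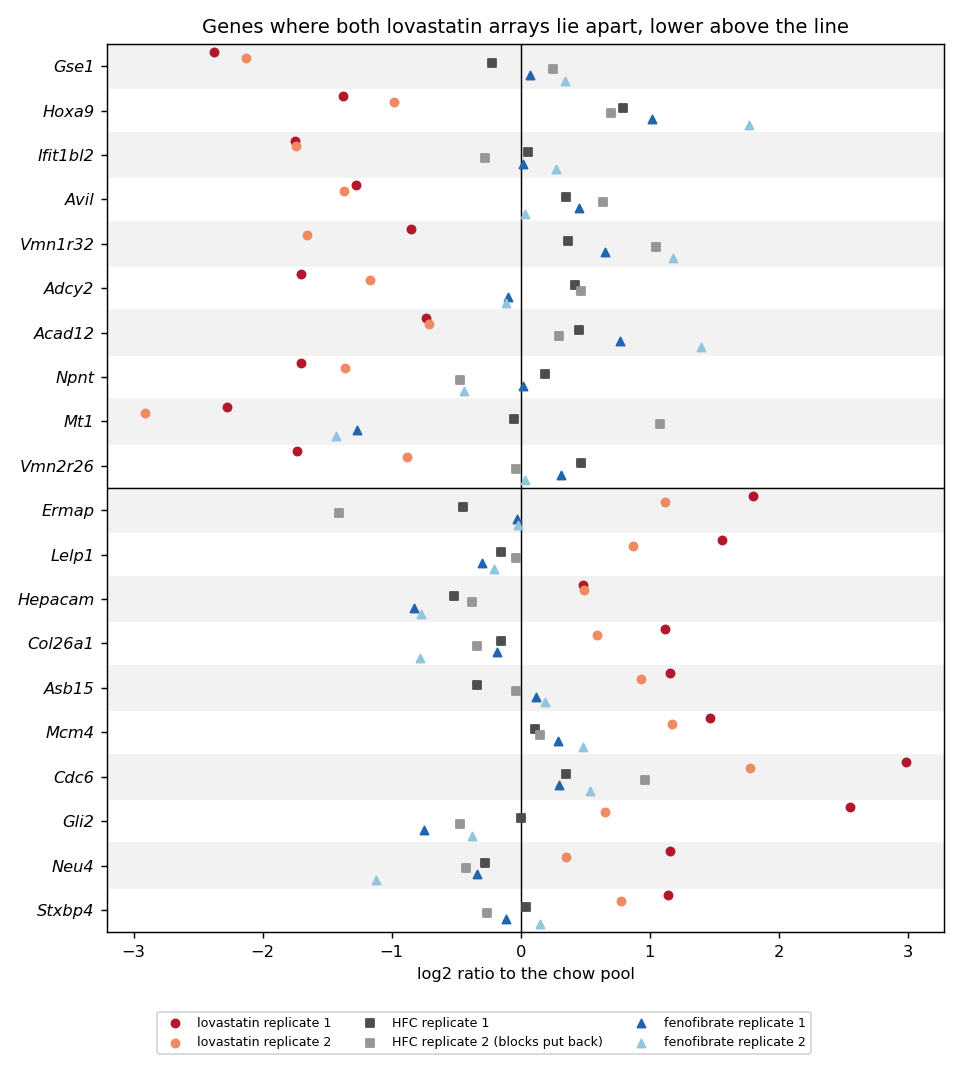
Log2 ratio to the chow pool (x axis) of the 20 named genes with the widest gap between the nearer lovastatin array and the nearest other array, 1 point per array. Lovastatin points (circles) lie left of the HFC and fenofibrate points above the line and right of them below it; Gse1 has the widest gap (1.91) and Mt1 shows fenofibrate points between the others.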

How the data were processed

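The authors deposited a log2 ratio for each spot on each array; how they scanned, corrected and normalized the arrays was not given in the sources used here. Base 2 is by convention: a control value of -9.71 exceeds what 16-bit signals allow on a log10 scale (4.82). Per the labels' protocols 0.5 µg of total RNA was labelled by linear amplification. Without intensities no filter on dim probes was possible, and precision is limited by there being 2 arrays a group. Of 22575 spots, 726 had no value and 561 repeated unnamed controls were left out, leaving 21288 probes. The platform annotation names 1 gene for 18658 probes; probes of a gene were averaged, giving 16887 genes and 2630 unnamed probes, 19517 features.

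Group means were fitted with limma 3.58.1 (statmod 1.5.0, R 4.3.3) over all 6 arrays, tested against 0 or against each other and adjusted by Benjamini-Hochberg over all features at 0.05 (3 residual degrees of freedom, prior 2.63). The ratio against 0 leaves out the spread between chow mice. Replicates are separate mice per the labels, and 0 columns of the table were left unused. Displaced blocks were found by correlating each block of each array with the mean of the other arrays, with lovastatin replicate 1 left out of that mean. By this, 4 blocks of HFC replicate 2 had r from -0.0344 to 0.0278 as deposited and from 0.237 to 0.256 after rotation.

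Named genes were the 15 per direction farthest from 0 on the nearer lovastatin array, the 5 of smallest p per comparison, up to 4 members per list and all cholesterol synthesis genes, the 10 per direction farthest from the other arrays, a fixed set, and those passing only with the blocks put back. Some list members beyond these were named after their values were seen. The members and lists were chosen with earlier results of these data known. 1 list is not reported here. The fit was tested on simulated data. Other settings were centring, scaling, quantile normalization, array weights, single probes, leaving out the noisiest 10% of features, a robust prior, the compared arrays alone, the blocks put back or left out, a replicate block and leaving out each array. Replicate numbers do not pair the mice: deviations of same-numbered arrays correlated from -0.0185 to 0.0311. Python 3.11.15 (numpy 2.4.6, pandas 2.3.3, matplotlib 3.10.9) served for all other steps.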

Additional observations from a re-analysis of the deposited data

How the results depend on the processing

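The counts of features past the threshold rested on which arrays set the spread. Against the pool, 20 features passed, all lower, with the noisiest 10% of features left out and 2 with the displaced blocks put back, against 0 as deposited; leaving out 1 array gave from 0 to 3139. The 3139 (1769 higher and 1370 lower) came without lovastatin replicate 2, when the wide replicate 1 stands alone and is assumed to vary like the other groups. Against HFC, leaving out 1 array gave from 0 to 1206 features, with 1206 without lovastatin replicate 2 and 59 without HFC replicate 1, and against fenofibrate from 0 to 1523, with 1523 without lovastatin replicate 2. Features at least 1 log2 unit below 0 on both lovastatin arrays numbered 111 after scaling the arrays to 1 spread and 109 after quantile normalization, against 174. The replicate block gave 0 features against the pool, as without it, and changed no other call; the numbers do not pair the mice.

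Of 226 gene results, 4 changed sign under some setting. Mvk against the pool ran from -1.60 without lovastatin replicate 1 to 0.36 without replicate 2, and Scd1 from -0.28 to 0.25, with 0.0973 after scaling and 0.105 after quantile normalization. The Sqle difference from HFC was 0.443 after scaling and ran from -0.31 to 0.11 with 1 array left out, and was 0.07 without lovastatin replicate 1. The Fdps difference from HFC was -0.291 after quantile normalization. None of these passed the threshold, and the cause was not tested. Of 164 list medians recomputed under other settings 10 changed sign, in 7 lists, such as glutathione and glucuronosyl transferases, acute phase and acyl-CoA thioesterases. Probe brightness was not analysed here, so what dim probes add to the spread is unknown.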

Other observations

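Interferon response and antigen processing genes leaned low in the lovastatin mice: 11 of 21 lay below 0 on both lovastatin arrays and 2 above, where 29.8% and 27.9% of all features did so. The list medians were -0.31 and -0.28 in lovastatin mice, against -0.19 and -0.19 (put back) in HFC mice and -0.54 and -0.66 in fenofibrate mice. Gbp3, a guanylate-binding protein, was at -1.32 and -0.98 in lovastatin mice, Isg15, a ubiquitin-like modifier, at -0.94 and -0.88, and Ifit1, which binds foreign RNA, at -1.15 and -0.78.

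Of 17 circadian clock genes 8 lay below 0 on both lovastatin arrays and 0 above, where 29.8% and 27.9% of all features did so. The medians were -0.48 and -0.24 in lovastatin mice, against -0.08 and -0.02 (put back) in HFC mice and -0.09 and -0.04 in fenofibrate mice. Per1, a repressor of the clock, was at -1.78 and -0.93 in lovastatin mice, Dbp, an output transcription factor, at -0.90 and -1.41, and Nr1d2, the receptor REV-ERBβ, at -0.78 and -0.77. The hour at which each liver was taken was not given in the sources used here. Acute phase genes were even, with 8 of 24 above and 8 below 0, among them Hp, haptoglobin, at 1.96 and 0.86 in lovastatin mice.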
